A study of Homo sapiens with 32 samples.

Results

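The genes examined here encode parts of the actin contractile apparatus that mark smooth muscle and myoepithelial cells, namely ACTA2, TAGLN, CNN1, CNN2, TPM1, TPM2, TPM4, MYL9, CALD1 and ACTN1. They were taken by gene symbol from a table of read counts with 17788 genes, in which 9 of the 10 were found and all 9 passed the low-count filter. CNN1 was not analysed here. The libraries came from MCF10A, a line of human breast epithelial cells that does not form tumors and grows with basal features in culture. The WT group consisted of the cell clones 27 and 2, labelled as JUNB WT. The mut group consisted of the clones 1 and 65, which the labels call JUNB KO and the study calls JUNB mut. All 4 are lines grown from single cells after the CRISPR/Cas9 procedure, WT clones included. JUNB encodes a partner in AP-1 dimers, and in the mut clones a large piece of the gene was removed, after which a shortened JUNB polypeptide remained per the study's description. Each clone received solvent or 5 ng/ml TGFβ1 for 6, 24 or 72 h in 2 replications, so that each of the 8 groups held 4 libraries. The solvent libraries are labelled as time point 0. Per the study's description, their plates received solvent for as long as the longest TGFβ1 exposure, and all plates were harvested equally long after seeding. Genotype and clone are likewise tied to each other, with 2 clones per genotype.

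Contraction of non-muscle and smooth muscle cells is driven by myosin II sliding along actin filaments, and TGFβ signaling is known to build up such filaments, as stress fibers, when epithelial cells take on mesenchymal traits. Many genes of the apparatus are known targets of serum response factor (SRF), a transcription factor that binds the CArG box together with cofactors of the myocardin-related (MRTF) family. In the mammary gland, the myoepithelial cells that surround the luminal layer are known for smooth muscle actin, calponin and caldesmon, which let them squeeze milk from the ducts.

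Library totals ranged from 39702412 to 54651906 counts, and the genes examined here received between 537 counts (MYL9) and 64381 counts (ACTN1) in a library. Levels are given as CPM, the counts of a gene scaled to a common library total. A difference is called when the Benjamini-Hochberg adjusted p-value of the limma-voom fit over 14865 genes, with all 8 groups in the model, is under 0.05. Libraries of 1 clone and 1 replication number form a series, written as clone and replication (27-2), and a second fit took the series as a block. JUNB reads did not separate the genotypes, with group means of 97.6 to 271 CPM in WT and 112 to 351 CPM in mut cells, so that they do not check the labels. The p-values measure the spread between these libraries, which come from 2 clones per genotype. As these are bulk libraries, fewer cells of a kind and less RNA per cell cannot be told apart. Under library-size scaling, more genes were called lower than higher in treated WT cells (38% and 14.1% at 24 h), and the median log2 change over all genes was -0.18 at 24 h and -0.19 at 72 h. Factors from trimmed means of M-values (TMM) brought these medians to 0.0014 and -0.029 and the 24 h calls to 23.2% lower and 23.5% higher. For the genotype difference in the 72 h change they turned 9.4% higher and 2.92% lower calls into 4.53% and 4.15%. No called value of the 9 genes reversed its sign under TMM factors.

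RefSeq promoter windows of GRCh38.p14, reaching from 250 bases before to 50 bases after a start site, were at hand for 8 of the 10 genes in 18 windows. CNN1 is among these 8 genes. No window was at hand for TAGLN or MYL9, so these 2 genes were not searched. The CArG box, a run of A and T between CC and GG read on both strands, was looked for in them because of its link to SRF. It occurred in 3 of the 18 windows, which belong to CNN2, TPM4 and ACTN1, and in 1.29% of all 35116 windows. The letters TGANTCA, which AP-1 recognizes and which were read on both strands, occurred in 1 window of CALD1 and in 7.71% of all windows. The TEAD motif CATTCC, on both strands, occurred in 4 windows, of ACTA2, CALD1 (2 windows) and ACTN1, and in 14% of all windows. The stretches upstream of the start site that hold a CArG box or the AP-1 letters are shown 5′ to 3′ on the strand of the gene, with the match in capitals. They are chr19:1026489-1026558 (plus strand) for CNN2, chr19:16067335-16067404 (plus) for TPM4, chr14:68977698-68977767 (minus) for ACTN1 and chr7:134711343-134711409 (plus) for CALD1.
CNN2: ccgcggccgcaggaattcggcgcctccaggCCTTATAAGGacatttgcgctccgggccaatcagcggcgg
TPM4: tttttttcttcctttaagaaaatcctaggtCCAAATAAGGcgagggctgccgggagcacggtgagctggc
ACTN1: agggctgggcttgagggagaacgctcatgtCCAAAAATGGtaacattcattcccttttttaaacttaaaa
CALD1: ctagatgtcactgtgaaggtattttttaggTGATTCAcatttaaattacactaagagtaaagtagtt
Counted from the start site of its own window, the match begins at -89 in CNN2, -173 in TPM4, -171 in ACTN1 and -126 in CALD1. TPM4, ACTN1 and CALD1 have further windows, at other start sites, without such a match. The CALD1 stretch lies before the annotated span of the gene, which is chr7:134744252-134970729. A match describes these letters only and is not evidence of binding. The windows of TPM1 and TPM2 held none of the motifs, and those of ACTA2 held no AP-1 letters and no CArG box of the searched form. This says no more than that the letters are not in them. A CArG box with another letter within its run of A and T was not looked for.

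The first question was how TGFβ1 alters these genes in WT cells. After 24 h, TAGLN, TPM1, TPM4, MYL9, CALD1 and ACTN1 rose, which is 6 of 9 genes, against 14.1% of all tested genes called higher. The same 6 genes were called higher at 72 h, where the share of all genes was 13.9%. ACTA2 fell at 72 h, a direction in which 38.4% of all genes were called. CNN2 and TPM2 were not called at any time. The comparisons at 6, 24 and 72 h share their solvent libraries. At 6 h the calls comprised CALD1 and ACTN1 (2 of 9, all genes 5.13%). For the 9 genes, the median log2 fold change was 0.26 after 6 h, 0.75 after 24 h and 0.70 after 72 h, whereas the median over all genes lay below 0 each time.

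**Figure D1:**
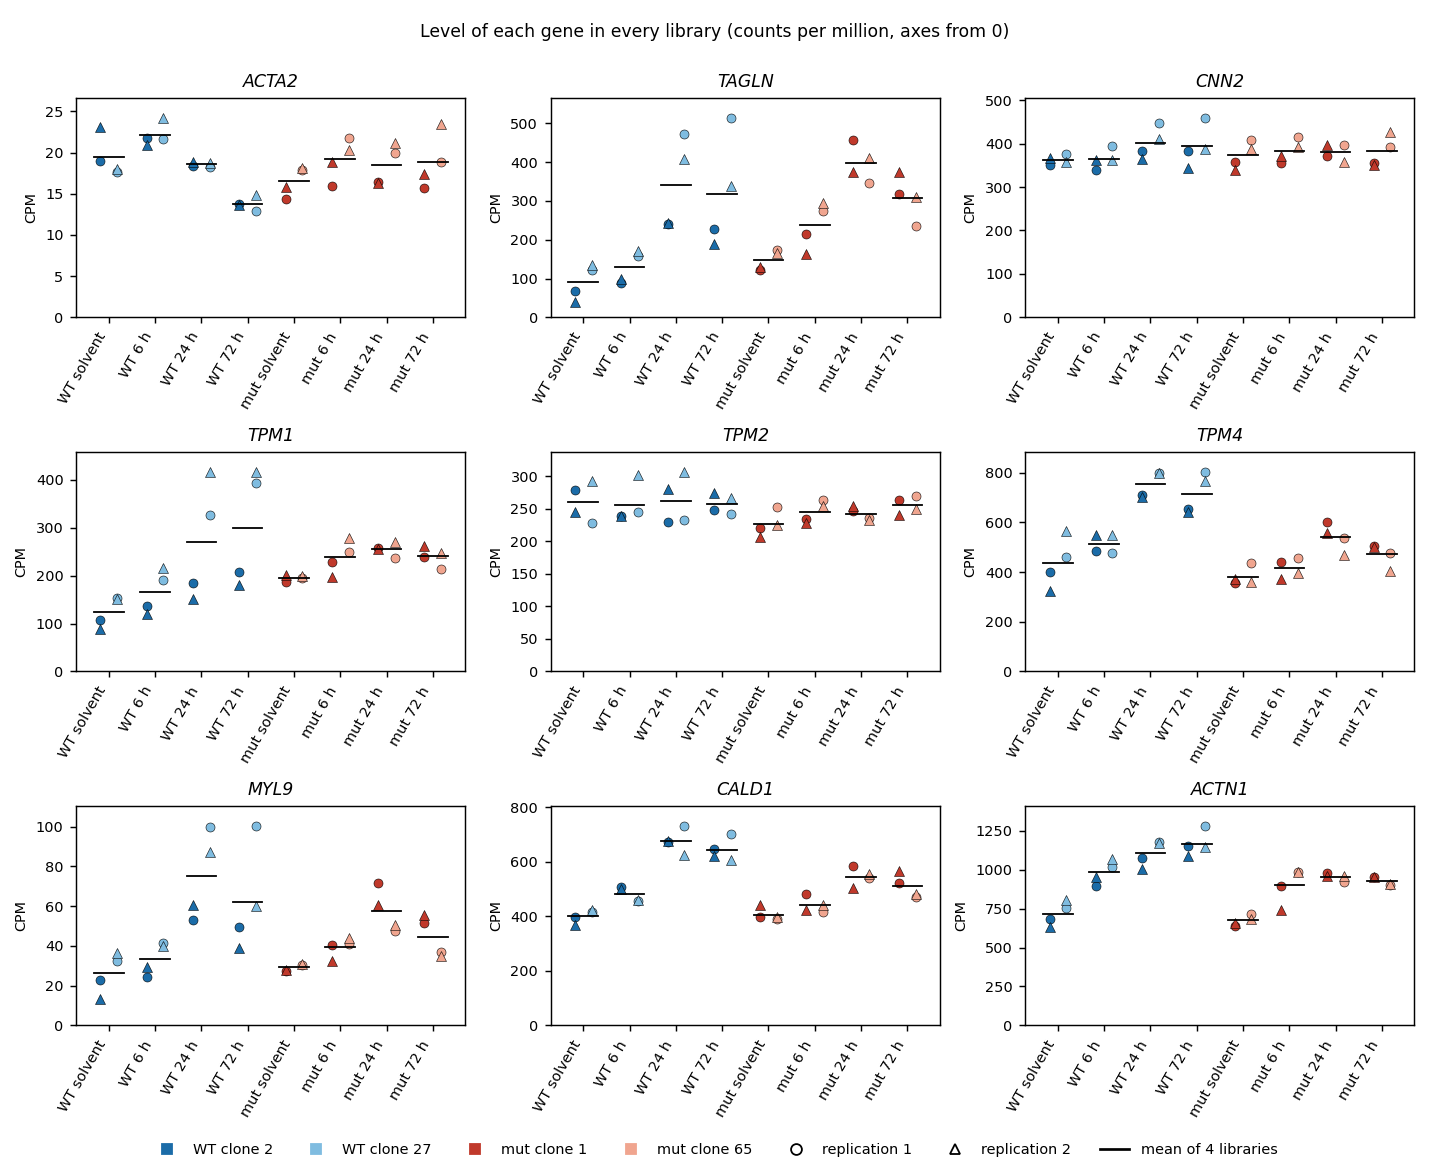
Level of 9 genes in each of the 32 libraries in CPM, with linear axes from 0; color gives the clone, symbol the replication and the black line the mean of the 4 libraries of a group. TAGLN, MYL9 and TPM1 lie higher in WT clone 27 than in WT clone 2 in every WT group, and ACTA2 is lowest in the WT 72 h group, at 12.9 to 14.8 CPM.

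TAGLN encodes transgelin, a small actin-binding protein of smooth muscle that stabilizes filaments. In WT solvent libraries it was at 66.9 and 40.4 CPM in clone 2 and at 122 and 134 CPM in clone 27. At 24 h the values were 241 and 244 CPM in clone 2 and 471 and 408 CPM in clone 27. At 72 h they were 229 and 190 CPM in clone 2 and 514 and 339 CPM in clone 27. Treated and solvent libraries did not overlap at 24 or 72 h, and clone 27 stood above clone 2 throughout. On the log2 scale TAGLN rose by 1.99 ± 0.32 (SE) after 24 h (limma-voom adjusted p = 5.23e-06) and by 1.85 ± 0.32 after 72 h (adjusted p = 1.75e-05), which made TAGLN the gene with the largest change among the 9. Each series exceeded its own solvent library, by 3.05- to 6.04-fold at 24 h. At 6 h the log2 fold change was 0.60 ± 0.32 without a call (adjusted p = 0.212), and with the series as a block it was 0.59 ± 0.17 with a call (adjusted p = 0.0122). That fit called 7.78% of all genes higher at 6 h.

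MYL9, the regulatory myosin light chain whose phosphorylation switches on contraction, showed a similar course at a lower level. Its WT solvent values were 23 and 13.5 CPM in clone 2 and 32.3 and 36.6 CPM in clone 27. At 24 h clone 2 gave 53.1 and 60.8 CPM and clone 27 gave 99.7 and 87.2 CPM. At 72 h the values were 49.6 and 39.1 CPM for clone 2 and 100.3 and 59.8 CPM for clone 27. Here too every treated library at 24 and 72 h lay above every solvent library. The log2 fold change was 1.56 ± 0.27 at 24 h (limma-voom adjusted p = 1.71e-05) and 1.24 ± 0.27 at 72 h (adjusted p = 0.000384).

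The tropomyosins wind along actin filaments and govern the access of myosin, and their 3 genes among those examined behaved differently. TPM1 in WT solvent was at 107 and 87.6 CPM in clone 2 and at 153 and 150.4 CPM in clone 27. At 72 h it reached 207 and 179.9 CPM in clone 2 and 394 and 416 CPM in clone 27, a log2 fold change of 1.2 ± 0.26 (limma-voom adjusted p = 0.000309). The groups did not overlap at 72 h, but at 24 h the value of 152 CPM in WT 24 h 2-2 lay within the solvent range. The 24 h change of TPM1 was called nonetheless (1.03 ± 0.26, adjusted p = 0.00135). TPM4 was at 401, 322, 459.9 and 565 CPM in WT solvent (series 2-1, 2-2, 27-1 and 27-2) and at 652, 640.2, 803 and 768 CPM after 72 h. All treated values at 72 h exceeded all solvent values, with a log2 fold change of 0.73 ± 0.12 (adjusted p = 7.83e-06), after 0.81 ± 0.12 at 24 h (adjusted p = 1.54e-06). At 6 h TPM1 (0.41 ± 0.26, adjusted p = 0.316) and TPM4 (0.26 ± 0.12, adjusted p = 0.130) were not called, whereas with the series as a block both were (adjusted p = 0.00191 and 0.0295). Without WT solvent 27-2, TPM4 was called at 6 h (0.40, adjusted p = 0.0133). TPM2 stayed between 228 and 307 CPM in all 16 WT libraries, and its log2 fold changes against solvent were -0.02, 0.01 and -0.01, each ± 0.09, in the order of the times. The 95% interval of the TPM2 change at 72 h reached from -0.19 to 0.17.

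**Figure D2:**
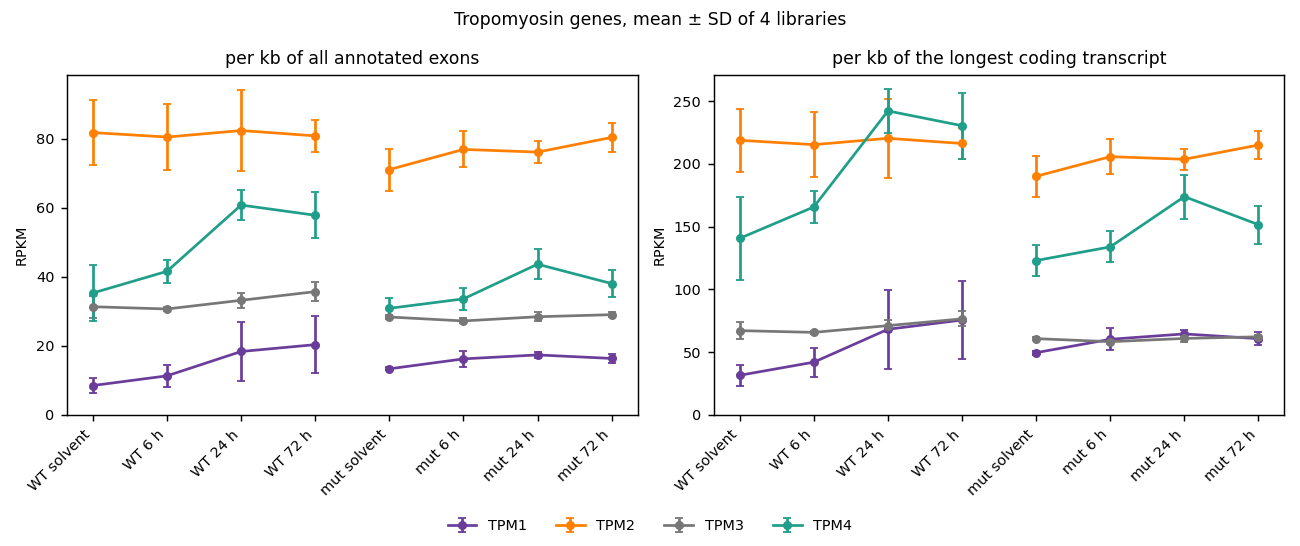
Mean RPKM (CPM per kilobase of length) ± SD of 4 libraries for TPM1, TPM2, TPM4 and, for reference, TPM3 in the 8 groups, per kilobase of all annotated exons (left) or of the longest coding transcript (right), with axes from 0. TPM1 and TPM4 climb with TGFβ1 in WT cells while TPM2 stays level, and TPM4 exceeds TPM2 in the WT 24 h and 72 h means only on the right.

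Levels of different genes can be compared only per length, and the length chosen matters for this family. Per kilobase of all annotated exons, TPM2 was at 81.8 ± 9.32 RPKM in WT solvent, TPM4 at 35.3 ± 8.25 RPKM and TPM1 at 8.48 ± 2.21 RPKM (SD, n = 4). This order held in all 8 groups, and in WT 24 h libraries the distance between TPM2 (82.4 ± 11.8 RPKM) and TPM4 (60.8 ± 4.32 RPKM) was smallest. Per kilobase of the longest coding transcript, TPM4 (242 ± 17.2 RPKM) and TPM2 (220.5 ± 31.7 RPKM) in WT 24 h libraries differed by less than the SD of TPM2. TPM1 was lowest of the 3 under both lengths.

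CALD1 encodes caldesmon, which binds actin, myosin and tropomyosin and restrains their sliding, and ACTN1 encodes alpha-actinin, which crosslinks actin filaments and anchors them at focal adhesions. CALD1 in WT solvent was at 399, 369, 415 and 422 CPM in the series 2-1, 2-2, 27-1 and 27-2. The values were 509, 499, 458 and 459 CPM after 6 h, 672, 677, 732 and 624 CPM after 24 h and 646, 619.6, 704 and 605 CPM after 72 h. No treated library fell into the solvent range at any time. The log2 fold change was 0.26 ± 0.07 at 6 h (limma-voom adjusted p = 0.00629), 0.75 ± 0.07 at 24 h (adjusted p = 4.90e-10) and 0.68 ± 0.07 at 72 h (adjusted p = 3.09e-09). For ACTN1, the 4 solvent values were 685, 634, 751 and 805 CPM, those at 6 h 892, 952, 1018 and 1069 CPM and those at 72 h 1149, 1089, 1281 and 1147 CPM. Its log2 fold change was already 0.45 ± 0.08 at 6 h (adjusted p = 0.000176), and it reached 0.70 ± 0.08 at 72 h (adjusted p = 3.01e-08).

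ACTA2, smooth muscle alpha-actin, is the classical myofibroblast and myoepithelial marker and took another course. WT solvent libraries held 19 and 23.1 CPM in clone 2 and 17.7 and 18 CPM in clone 27. At 6 h the range was 20.9 to 24.2 CPM and at 24 h 18.3 to 18.9 CPM. At 72 h the values were 13.8 and 13.7 CPM in clone 2 and 12.9 and 14.8 CPM in clone 27, all below each solvent value. The log2 fold change at 72 h was -0.48 ± 0.12 (limma-voom adjusted p = 0.00122), and with TMM factors, which moved the median of all genes close to 0, it was -0.32 (adjusted p = 0.0289). Leaving out single libraries kept the call, with values from -0.53 to -0.40. From 24 to 72 h ACTA2 fell by 0.43 ± 0.12 on the log2 scale (adjusted p = 0.0236, 3.15% of all genes lower). That call was lost without WT 24 h 2-2, WT 24 h 27-1, WT 72 h 2-1 or WT 72 h 27-1, with adjusted p-values of 0.0502 to 0.0781, and with clone sums (adjusted p = 0.168).

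The annotation places other genes on the bases of ACTA2 and TAGLN, and the library kit keeps no strand. ACTA2 (chr10:88935074-88991339, minus strand) shares 29.1% of its exonic bases with ACTA2-AS1, which was at 0.123 CPM or less as a group mean, and 6.88% with FAS. FAS fell in WT cells from 123 ± 10.2 CPM in solvent to 87.5 ± 6.21 CPM at 72 h (SD, n = 4; log2 fold change -0.49 ± 0.07, limma-voom adjusted p = 3.25e-06). In mut cells FAS was at 109 ± 9.13 CPM in solvent and at 94.5 ± 4.18 CPM at 72 h, where its log2 fold change was -0.20 ± 0.07 (adjusted p = 0.0457). The part of FAS reads in the ACTA2 values was not tested. TAGLN (chr11:117199370-117207464, plus strand) shares 34.1% of its exonic bases with PCSK7 on the other strand. PCSK7 was not called in any of the 17 comparisons, with group means of 76.3 to 82.3 CPM, so that TAGLN rose while no change of PCSK7 was called. No other gene of the count table shares exonic bases with the remaining 7 genes, which lie at chr19:1026586-1039068 (CNN2, plus strand), chr15:63042620-63071915 (TPM1, plus), chr9:35681992-35690056 (TPM2, minus), chr19:16067021-16103002 (TPM4, plus), chr20:36541497-36551447 (MYL9, plus), chr7:134744252-134970729 (CALD1, plus) and chr14:68874128-68979440 (ACTN1, minus) in GRCh38.

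CNN2, a calponin of non-muscle cells that also binds actin, was among the genes without a call in WT cells under library-size scaling. Its WT libraries ranged from 340.1 to 459 CPM, with log2 fold changes of 0.14 ± 0.08 at 24 h (limma-voom adjusted p = 0.128) and 0.11 ± 0.08 at 72 h (adjusted p = 0.245). This depended on the scaling and the model. With TMM factors CNN2 was called higher, at 0.32 (adjusted p = 0.00127) and 0.27 (adjusted p = 0.00566), and with the series as a block the 24 h change was called as well (0.14 ± 0.06, adjusted p = 0.0335), in a fit that called 17.1% of all genes higher.

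**Figure D3:**
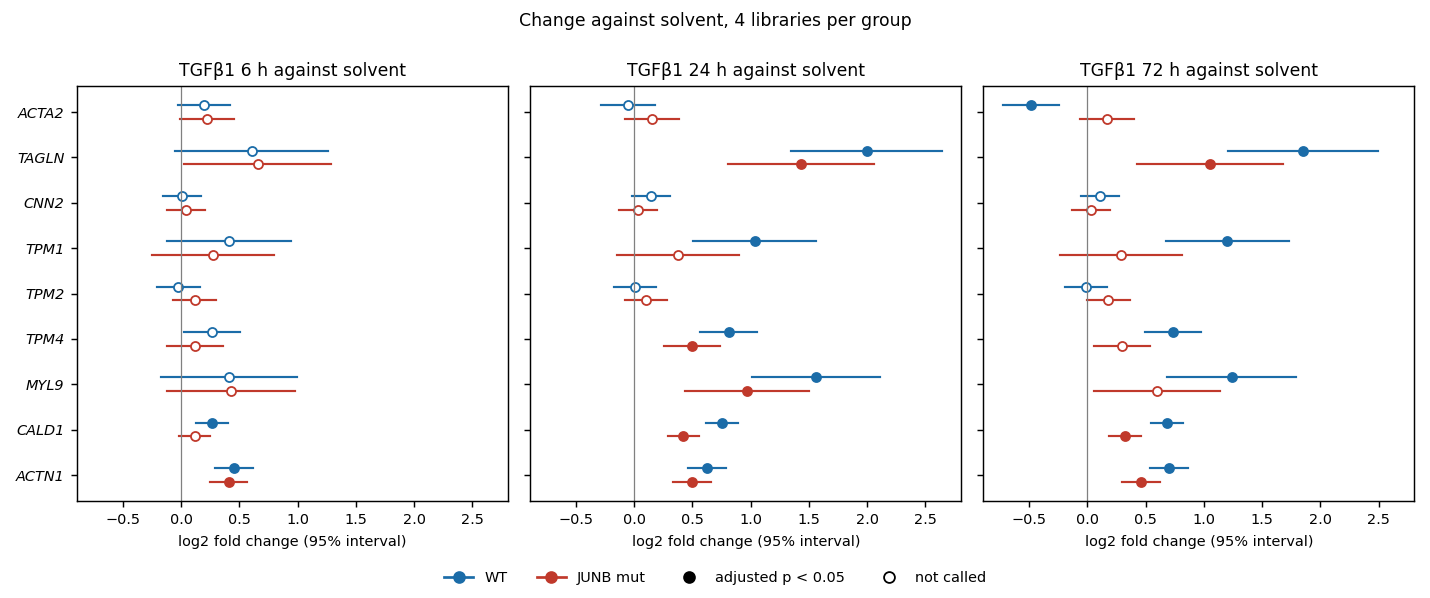
Log2 fold change with its 95% interval for TGFβ1 against solvent at 6, 24 and 72 h, for 9 genes in WT (blue) and JUNB mut cells (red); filled points are called by limma-voom over all genes. At 72 h, 7 WT points and 3 mut points are filled, and ACTA2 in WT is the one called point to the left of 0.

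Next, the time steps within the treatment were compared. From 6 to 24 h in WT cells TAGLN, TPM4, MYL9 and CALD1 rose (4 of 9, all genes 7.16%), with log2 fold changes of 1.39 ± 0.31, 0.55 ± 0.12, 1.15 ± 0.25 and 0.49 ± 0.07 (limma-voom adjusted p = 0.00108, 0.000826, 0.000978 and 4.76e-06). With the series as a block 7 genes were called, the additional ones being TPM1 (0.63 ± 0.09, adjusted p = 5.62e-06), ACTN1 (0.17 ± 0.06, adjusted p = 0.0326) and, in the lower direction, ACTA2 (-0.25 ± 0.07, adjusted p = 0.00941). The block raised the share of all genes to 11% higher and 26.7% lower. TMM factors also gave 7 calls, of other membership, with CNN2 called higher (0.24, adjusted p = 0.0246) and ACTA2 not called (-0.15, adjusted p = 0.346). TPM1 was also called without WT 6 h 27-2, WT 24 h 2-1 or WT 24 h 2-2 (adjusted p = 0.0145 to 0.0378). Between 24 and 72 h in WT cells ACTA2 was the gene that was called. ACTN1 thus had most of its 72 h change at 6 h, whereas TAGLN and MYL9 had most of theirs after 6 h.

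In mut cells, 1 gene was called higher at 6 h (ACTN1, all genes 2.06%), 5 at 24 h (TAGLN, TPM4, MYL9, CALD1 and ACTN1, all genes 6.75%) and 3 at 72 h (TAGLN, CALD1 and ACTN1, all genes 7.81%). With the series as a block, these counts were 3, 6 and 7 in the order of the times, while the share of all genes called higher grew to 4.92%, 9.89% and 11%. The additional 6 h calls were TAGLN (0.66 ± 0.16, limma-voom adjusted p = 0.00711) and TPM1 (0.27 ± 0.09, adjusted p = 0.0415). TAGLN in mut solvent was at 121 and 131 CPM in clone 1 and at 174 and 167 CPM in clone 65. At 24 h it was at 457 and 375 CPM in clone 1 and at 345 and 411 CPM in clone 65, and at 72 h at 316 and 373 CPM in clone 1 and 234 and 309 CPM in clone 65. Treated and solvent values were separate at both times. The log2 fold change was 1.43 ± 0.31 at 24 h (limma-voom adjusted p = 0.00126) and 1.05 ± 0.31 at 72 h (adjusted p = 0.0126). Without the series 1-2 the 72 h change was 0.90 and no longer called (adjusted p = 0.0934), and summing the replications of a clone also ended that call (adjusted p = 0.105). At 6 h TAGLN was at 216, 162, 274 and 296 CPM in the series 1-1, 1-2, 65-1 and 65-2.

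MYL9 in mut cells lay at 27.3 and 28 CPM (clone 1) and 30.6 and 30.7 CPM (clone 65) in solvent. At 24 h it was at 71.7 and 60.5 CPM in clone 1 and 47.7 and 50.7 CPM in clone 65, a log2 fold change of 0.97 ± 0.26 (limma-voom adjusted p = 0.00781; 0.0790 with clone sums). At 72 h clone 1 was at 51.3 and 55.3 CPM and clone 65 at 37.1 and 34.9 CPM, without a call (0.60 ± 0.27, adjusted p = 0.101). Clone 1 thus stood above clone 65 at both times, in reverse of the order in solvent. The block for series gave 0.60 ± 0.16 with a call at 72 h (adjusted p = 0.00351).

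For CALD1 the mut solvent values were 397, 442, 389 and 399 CPM in the series 1-1, 1-2, 65-1 and 65-2. They were followed by 585, 504, 539.6 and 554 CPM at 24 h and 524, 567, 472 and 481 CPM at 72 h. All treated values of both times exceeded all solvent values, with log2 fold changes of 0.42 ± 0.07 (limma-voom adjusted p = 4.03e-05) and 0.33 ± 0.07 (adjusted p = 0.000569). ACTN1 in mut cells changed by 0.41 ± 0.08 at 6 h (adjusted p = 0.00255, but 0.0764 with clone sums), 0.50 ± 0.08 at 24 h (adjusted p = 4.28e-05) and 0.46 ± 0.08 at 72 h (adjusted p = 7.24e-05). TPM4 rose at 24 h to 600.4, 556, 536 and 469 CPM from solvent values of 357, 373, 438 and 360.04 CPM (0.50 ± 0.12, adjusted p = 0.00277). At 72 h TPM4 was at 504, 499.9, 478 and 402 CPM, which overlapped the solvent range and gave 0.30 ± 0.12 (adjusted p = 0.0618; 0.00996 with the series as a block). It was called without mut solvent 65-1 (adjusted p = 0.0342) or mut 72 h 65-2 (adjusted p = 0.0284).

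TPM1 in mut cells ranged from 187 to 202 CPM in solvent, from 236 to 269.8 CPM at 24 h and from 214 to 261 CPM at 72 h. The ranges did not overlap, yet the shared spread of the model, to which the 2 WT clones contribute, gave no call at 72 h (0.29 ± 0.26, limma-voom adjusted p = 0.444). With the series as a block TPM1 was called at 24 h (0.38 ± 0.09, adjusted p = 0.00211) and at 72 h (0.29 ± 0.09, adjusted p = 0.0152), and so was TPM2 at 72 h (0.18 ± 0.07, adjusted p = 0.0360). From 6 to 24 h in mut cells CALD1 rose (1 of 9, all genes 1.3%) by 0.31 ± 0.07 (adjusted p = 0.0111), a call that was lost without mut 24 h 1-1 (adjusted p = 0.0814) and with clone sums (adjusted p = 0.0957). With the block, 4 genes were called in that step (all genes higher 4.3%), adding TAGLN (0.77 ± 0.16, adjusted p = 0.00260), TPM4 (0.38 ± 0.09, adjusted p = 0.00740) and MYL9 (0.54 ± 0.15, adjusted p = 0.0177). From 24 to 72 h limma-voom called 0 of the 9 genes in mut cells (all genes in either direction 1.31%), with 0 at an unadjusted p-value under 0.05 and 0 by edgeR and by DESeq2.

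TPM2 and CNN2 showed little movement in mut cells as well. TPM2 ranged from 206 to 253 CPM in solvent and from 241 to 269.5 CPM at 72 h, with overlapping groups. CNN2 ranged from 338 to 427 CPM over all 16 mut libraries, and its log2 fold change against solvent was at most 0.04 ± 0.08.

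ACTA2 in mut solvent was at 14.3 and 15.8 CPM in clone 1 and at 17.9 and 18.1 CPM in clone 65. After 72 h it was at 15.7 and 17.3 CPM in clone 1 and at 18.9 and 23.5 CPM in clone 65. Clone 65 exceeded clone 1 in all 4 mut groups, and the groups overlapped. None of the log2 fold changes was called by limma-voom, with 0.22 ± 0.11 (adjusted p = 0.240) after 6 h, 0.15 ± 0.11 (adjusted p = 0.360) after 24 h and 0.17 ± 0.11 (adjusted p = 0.296) after 72 h. Each of the 4 mut series lay above its own solvent library at 72 h, by 1.05- to 1.30-fold, while all 4 WT series lay below theirs, at 0.592- to 0.824-fold.

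The genotypes were then compared at the same treatment. In solvent limma-voom called 0 of 9 genes (all genes in either direction 12.7%), 3 had an unadjusted p-value under 0.05 (TAGLN, TPM1 and TPM2), and edgeR and DESeq2 also called 0. TPM1 was the gene whose solvent groups did not overlap, with 87.6 to 153 CPM in WT and 187 to 202 CPM in mut libraries (log2 difference 0.69 ± 0.26, limma-voom adjusted p = 0.0793). How many of all genes were likewise separate in solvent was not counted. For TAGLN in solvent, the difference was 0.84 ± 0.32 (adjusted p = 0.0809). It was called without WT solvent 27-1 (adjusted p = 0.0488) or WT solvent 27-2 (adjusted p = 0.0400), both from the clone with the higher WT values. Without the series 27-2, TPM1 was called in solvent (0.79, adjusted p = 0.0248) and at 6 h (0.70, adjusted p = 0.0311). At 6 h TAGLN was higher in mut cells (all genes higher 11.3%), at 162 to 296 CPM against 88.7 to 170.4 CPM in WT cells, with 0.89 ± 0.31 (adjusted p = 0.0380). This call was lost without WT 6 h 2-1, WT 6 h 2-2, mut 6 h 1-1, mut 6 h 65-1 or mut 6 h 65-2 (adjusted p = 0.0506 to 0.131), and with clone sums (adjusted p = 0.185).

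TPM4 at 6 h was at 371 to 455 CPM in mut and 476 to 550.3 CPM in WT libraries, which did not overlap, with a log2 difference just short of a call (-0.31 ± 0.12, limma-voom adjusted p = 0.0601).

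After 24 h, TPM4, CALD1 and ACTN1 were lower in mut than in WT cells (3 of 9, all genes 12.2%). TPM4 differed by -0.48 ± 0.12 (limma-voom adjusted p = 0.00216), CALD1 by -0.31 ± 0.07 (adjusted p = 0.000645) and ACTN1 by -0.21 ± 0.08 (adjusted p = 0.0369). For none of the 3 did WT and mut libraries overlap. The share of all genes without overlap was not counted, and 36.9% of all genes were called in either direction. The ACTN1 call was lost without WT 24 h 27-1, WT 24 h 27-2, mut 24 h 1-2, mut 24 h 65-1 or mut 24 h 65-2 (adjusted p = 0.0602 to 0.105), and with clone sums (adjusted p = 0.152). At 72 h the same 3 genes were lower in mut cells (all genes 13.2%). TPM4 was at 402 to 504 CPM in mut against 640.2 to 803 CPM in WT libraries (-0.60 ± 0.12, adjusted p = 0.000185). CALD1 was at 472 to 567 against 605 to 704 CPM (-0.33 ± 0.07, adjusted p = 0.000229). ACTN1 was at 903 to 954 against 1089 to 1281 CPM (-0.33 ± 0.08, adjusted p = 0.00174).

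ACTA2 was higher in mut than in WT cells at 72 h, at 15.7 to 23.5 against 12.9 to 14.8 CPM, in a direction in which 26% of all genes were called. The difference was 0.42 ± 0.12 (limma-voom adjusted p = 0.00505) and 0.34 with TMM factors (adjusted p = 0.0221), and with the replications of each clone summed it just missed the threshold (0.43, adjusted p = 0.0522). TAGLN, TPM1 and MYL9 overlapped between the genotypes at 24 and 72 h. Their 72 h differences were 0.04 ± 0.31, -0.22 ± 0.26 and -0.41 ± 0.25, with adjusted p-values of 0.924, 0.520 and 0.199. The 95% interval for TAGLN reached from -0.58 to 0.67. For TAGLN at 72 h, WT clone 2 (mean 209 CPM) lay below and WT clone 27 (mean 426 CPM) above both mut clones (means 345 and 272 CPM). For TPM1 the WT clone means at 72 h were 193 and 405 CPM and the mut clone means 249.5 and 231 CPM, so that here as well the mut clones lay between the WT clones.

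The test of the difference itself was the interaction, that is the log2 change in mut minus the log2 change in WT cells. At 6 h limma-voom called 0 of 9 genes (all genes in either direction 0.074%), with 0 at an unadjusted p-value under 0.05 and 0 by edgeR and by DESeq2. At 24 h CALD1 changed less in mut cells (all genes lower 1.93%), by -0.33 ± 0.09 (limma-voom adjusted p = 0.0261), and the block added TPM1 (-0.66 ± 0.13, adjusted p = 0.000954, all genes lower 4.64%). The CALD1 call at 24 h was lost without WT solvent 2-2, WT 24 h 27-1, mut solvent 1-2, mut 24 h 1-2 or mut 24 h 65-1 (adjusted p up to 0.0671), without the series 1-2 (adjusted p = 0.115) and with clone sums (also 0.115). At 72 h CALD1 (all genes lower 2.92%) differed by -0.35 ± 0.09 (adjusted p = 0.0132). ACTA2 (all genes higher 9.4%) differed by 0.65 ± 0.16 (adjusted p = 0.00934). With TMM factors the ACTA2 value was 0.57 (adjusted p = 0.0281). Both 72 h calls held without any single library, but not with clone sums, where the adjusted p-values were 0.0809 for CALD1 and 0.103 for ACTA2.

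**Figure D4:**
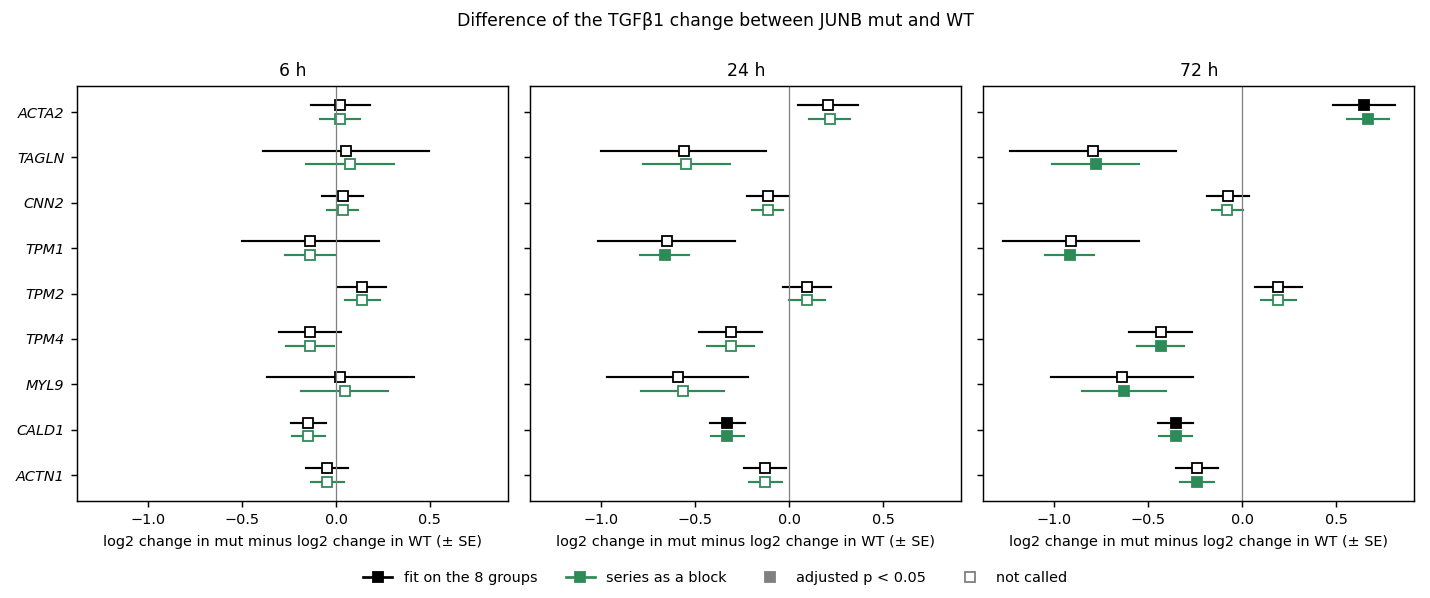
Log2 change in JUNB mut minus log2 change in WT cells ± SE at 6, 24 and 72 h for 9 genes, from the fit on the 8 groups (black) and with the series as a block (green); filled squares are called over all genes. Values are nearly the same in both fits while the SE is smaller with the block, and at 72 h 2 black and 7 green squares are filled.

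The block for series, in which each treated library is set against the solvent library of the same clone and replication, called 7 of 9 interactions at 72 h, 1 higher and 6 lower. The same fit called 17.1% of all genes higher and 6.33% lower. ACTA2 was higher (0.67 ± 0.11, limma-voom adjusted p = 0.000137). Lower were TAGLN (-0.78 ± 0.23, adjusted p = 0.0161), TPM1 (-0.92 ± 0.13, adjusted p = 2.24e-05), TPM4 (-0.43 ± 0.13, adjusted p = 0.0138), MYL9 (-0.63 ± 0.22, adjusted p = 0.0403), CALD1 (-0.35 ± 0.09, adjusted p = 0.00455) and ACTN1 (-0.24 ± 0.09, adjusted p = 0.0496). For TAGLN, TPM1, TPM4, MYL9 and ACTN1 the fit on groups gave similar values without a call, namely -0.80 ± 0.44 (adjusted p = 0.254), -0.91 ± 0.36 (adjusted p = 0.0993), -0.43 ± 0.17 (adjusted p = 0.0847), -0.64 ± 0.38 (adjusted p = 0.293) and -0.24 ± 0.11 (adjusted p = 0.161). Without WT solvent 27-2, the library with the highest solvent value of TPM4, the fit on groups called TPM4 too (-0.57, adjusted p = 0.0131), and without WT 72 h 2-2 it called TPM1 (-1.12, adjusted p = 0.0480). CNN2 and TPM2 were not called in either fit, at -0.08 ± 0.08 and 0.19 ± 0.09 with the block (adjusted p = 0.530 and 0.141). By the fit with the block, the 6 genes that rose in WT cells at 72 h all changed less in mut cells. These 6 were singled out by the WT change that the interaction subtracts, which favors this direction in advance. The share among all genes that rose in WT cells was not counted. The series of the block come from 2 clones per genotype, and with clone sums none of the interactions at 72 h was called. TPM1 was furthest apart, at 2.4-fold in WT and 1.23-fold in mut cells as ratios of group means. With solvent, TPM1 averaged 196 CPM in mut against 125 CPM in WT libraries, and TAGLN 148 against 90.8 CPM. At 72 h the means were 240 against 299 CPM for TPM1 and 308 against 318 CPM for TAGLN. By the fit on groups, TPM1, TAGLN and MYL9 were not called between genotypes in solvent or at 72 h. TPM4, CALD1 and ACTN1 were called lower in mut cells at 72 h. The part of the solvent levels in these interactions was not tested.

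Across the 32 libraries, which share series and treatments, log2 CPM values of some of the genes moved side by side. The highest correlations were those of TAGLN with MYL9 (Pearson r = 0.909), TAGLN with TPM1 (0.893) and TPM4 with CALD1 (0.881). ACTA2 had negative values with TAGLN, TPM1, TPM4, MYL9, CALD1 and ACTN1, down to -0.368 with CALD1, and TPM2 reached at most 0.389, with TPM4. Among 9624 other genes with a mean of at least 10 CPM, the closest to TAGLN were MSRB3 (r = 0.947) and CCN2 (0.902), the latter encoding a matrix-associated protein induced by TGFβ. Closest to CALD1 were IL13RA1 (0.968) and ITGAV (0.968), to TPM4 CAP1 (0.962) and TUBA1A (0.927), and to ACTN1 PDLIM7 (0.953) and FSTL3 (0.948). TPM1 came closest to MSRB3 (0.865) and MYO1C (0.849), and MYL9 to ANXA2 (0.864) and CAVIN1 (0.855). For ACTA2 the nearest genes were GJB5 (0.824) and PROCR (0.815), for TPM2 PPM1F (0.793) and SPATC1L (0.737) and for CNN2 ROBO3 (0.713) and SELENOW (0.712). All are values over the same 32 libraries and carry no test.

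Other genes of contractility were read from a list of 27 genes, of which 26 were tested. At 72 h in WT cells, 13 were called higher and 3 lower, where 13.9% of all genes were higher and 38.4% lower. The median log2 fold change was 0.20 beside -0.19 for all genes. The largest rises were those of SMTN (smoothelin, 1.13 ± 0.13, limma-voom adjusted p = 6.33e-08), RHOB (1.08 ± 0.26, adjusted p = 0.00112) and TAGLN2 (a transgelin of non-muscle cells, 0.98 ± 0.09, adjusted p = 1.42e-09). ACTC1 (-0.67 ± 0.22), at 1.26 CPM in WT cells at 72 h, PPP1R12B (-0.30 ± 0.10) and MYH10 (-0.29 ± 0.07) fell. In mut against WT cells at 72 h, 12 of the 26 were lower and 1 was higher (all genes 13.2% and 26%), with a median of -0.34 beside 0.10 for all genes. SMTN (-1.27 ± 0.13, adjusted p = 2.82e-08), CNN3 (a calponin, -0.61 ± 0.08, adjusted p = 1.03e-06) and MYH9 (the heavy chain of non-muscle myosin IIA, -0.54 ± 0.09, adjusted p = 1.23e-05) had the lowest values. The interaction at 72 h was called lower for 4 of the 26 (all genes 2.92%), namely RHOB (-1.40 ± 0.35), CNN3 (-0.80 ± 0.11), TAGLN2 (-0.55 ± 0.13) and MYH9 (-0.40 ± 0.12).

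The 26 genes of actin filaments and focal adhesions linked to SRF gave 19 higher and 1 lower call in WT cells at 72 h, beside 13.9% and 38.4% of all genes, with a median of 0.45 beside -0.19. FLNC, a filamin (1.78 ± 0.33), PDLIM7 (1.39 ± 0.13) and FBLIM1 (1.02 ± 0.11) had the largest values, and MYOF (-0.27 ± 0.07) was the gene that fell. Against WT, 13 of the 26 were lower and 2 higher in mut cells at 72 h, beside 13.2% and 26% of all genes (median -0.34 beside 0.10), among them FLNC (-2.19 ± 0.36), LIMA1 (-0.58 ± 0.08) and NEXN (-0.54 ± 0.14). Of 10 tested SRF and MRTF regulators, FHL2 (0.62 ± 0.11), MRTFA (0.60 ± 0.06) and ELK3 (0.57 ± 0.08) rose in WT cells at 72 h, while SCAI (-0.51 ± 0.15), ELK4 (-0.30 ± 0.09) and ELK1 (-0.23 ± 0.07) fell. Of all genes, 13.9% were called higher and 38.4% lower, so that the 3 of 10 that fell do not stand out from all genes. Against WT cells, NKX2-5, ELK4 and ELK1 were higher and GATA6, MRTFA and ELK3 lower in mut cells at 72 h, where 26% and 13.2% of all genes were called. MRTFA changed less in mut cells, with an interaction of -0.39 ± 0.08 at 72 h (limma-voom adjusted p = 0.00194). SRF itself was at 87.9 CPM in WT solvent, 82.8 CPM in WT and 85.9 CPM in mut cells at 72 h.

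Markers of the cell types that share these contractile genes were read as group means. Among basal markers, KRT5 had group means of 3653 to 7720.2 CPM and KRT14 of 364 to 1456 CPM, and TP63 was at 79.3 to 125 CPM. Of the markers of terminal smooth muscle, MYH11 was at 3.78 to 5.45 CPM and SMTN at 42.3 to 204 CPM, whereas ACTG2, LMOD1, DES and SYNPO2 stayed under 1 CPM in every group mean. Not all of the 7 measured genes of this list are named here, and 6 were tested. At 72 h, 2 of the 6 were called higher and 0 lower in WT cells (all genes 13.9% and 38.4%). In mut against WT cells, 0 were higher and 2 lower (all genes 26% and 13.2%). OXTR, which myoepithelial cells use to respond to oxytocin, was at 0.750 to 1.34 CPM. Of the luminal markers, KRT19 did not exceed 0.200 CPM and ESR1 0.857 CPM, whereas KRT8 was at 109 to 203 CPM, KRT18 at 114 to 198 CPM and MUC1 at 61.4 to 458 CPM. PTPRC of leukocytes and VWF of endothelium were at 0.0996 CPM or less. In WT cells at 72 h the basal list of 10 genes was split, with 4 higher (KRT14, SERPINB5, ITGB4 and ITGA6) and 2 lower (KRT5 and MME), beside 13.9% and 38.4% of all genes. Their summed level was 10735 to 13945 CPM in WT and 14443 to 18101 CPM in mut libraries at 72 h. By gene, 2 of the 10 were called higher and 2 lower in mut against WT cells at 72 h (all genes 26% and 13.2%). The median log2 difference was 0.12 beside 0.10 for all genes. The summed level of the 8 luminal genes was 415 to 639 CPM in WT and 786 to 1066 CPM in mut solvent libraries, which did not overlap, and 303 to 505 CPM and 473 to 577 CPM at 72 h. Of these 8 genes, 5 were called higher and 1 lower in mut solvent (all genes 6.38% and 6.32%). In WT cells 5 fell and 0 rose at 24 h (all genes 38% and 14.1%), and 3 fell and 1 rose at 72 h (38.4% and 13.9%). At 72 h the 6 measured genes of other cell types summed to 9.27 to 18.8 CPM in WT and 33.5 to 47.9 CPM in mut libraries. In mut against WT cells at 72 h, CD14 (1.68 ± 0.32) and DCN (1.63 ± 0.28) were higher and PDGFRA (-1.39 ± 0.34) was lower. The part of such shifts in the contractile genes was not tested.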

How the data were processed

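The deposited values were raw counts of reads for each gene in each library. According to the study, the authors trimmed reads with Trimmomatic and used STAR for alignment to GRCh38 (Ensembl) and for counting; versions are not given in the sources used here. TruSeq RNA v2 libraries keep no strand. Identifiers were matched to GENCODE release 44 (17763 of 17788), and sequences are from RefSeq GRCh38.p14. No library was a duplicate of another (chi-square per degree of freedom within groups at least 11.5), and 0 columns were left unused.

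The 10 genes and all lists were chosen with earlier results of these data known. Genes passing filterByExpr (minimum count 10, minimum total 15) were fitted with voom of limma 3.58.1 (R 4.3.3, edgeR 4.0.16) with library-size scaling and 1 coefficient per group over all 32 libraries. The text names 9 of the 10 genes throughout, up to 3 called genes of either direction per list (WT cells, and mut against WT, at 72 h), called contractile genes and regulators, and the 2 genes most correlated with each of the 9 measured. Alternatives were TMM factors, edgeR quasi-likelihood, DESeq2 1.42.0, no filter, fits on the compared groups, the series as block, clone sums, a log2 fold change of 1 and leaving out libraries; leaving out the series 27-2 or 1-2 was added after seeing the data. Series pair libraries of the same clone and replication number: their deviations from group means correlated, with a mean r of 0.122 (1-2) to 0.630 (27-2) within series (lowest pair 0.0283), against -0.0968 between series of a genotype. Errors cover counting and replicate spread only.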

Additional observations from a re-analysis of the deposited data

Results flagged for a closer look

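The interaction of genotype and TGFβ1 was called for 3 values. For CALD1 the change was smaller in mut cells, with differences of -0.33 at 24 h and -0.35 at 72 h on the log2 scale. ACTA2 differed by 0.65 at 72 h, falling in WT cells without a call in mut cells.

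Within groups, 1 library stood far from the 3 others. TPM2 in WT 6 h 27-2 was at 302 CPM against 239 to 245 CPM, a gap of 0.895 of the range. This was 1 of 72 combinations of gene and group examined, and chance alone gives about 1 in 20.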

How the results depend on the processing

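Of 2961 log2 fold changes of single genes under the alternatives, 2800 kept their side of the threshold, 65 lost a call, 96 gained one and 0 called values reversed, while 129 uncalled values changed sign. Counts below are called genes of 9. Taking the series as a replicate block gave 5 for WT 6 h against solvent (2 without the block), 3 for mut 6 h (1), 7 for mut 72 h (3), 2 for the interaction at 24 h (1), 7 for that at 72 h (2), 7 for WT 24 against 6 h (4) and 4 for mut 24 against 6 h (1). With TMM factors and the block they were 6, 5, 8, 3, 7, 7 and 4. Of all genes, the block called 25.9%, 16.5%, 33.9%, 18.7%, 23.5%, 37.7% and 11.6% in either direction in these comparisons. With TMM factors added, the shares were 21.1%, 13.1%, 29.7%, 15.3%, 18.7%, 35.7% and 10.6%. In the other comparisons within a genotype and the interaction at 6 h the block left the count within 1.5 times, and it changed no call beyond those already named. It was not run for mut against WT, since a series lies within 1 genotype. TMM factors alone and DESeq2 each gave 7 for WT 24 against 6 h (all genes 25.1% and 26.8%). DESeq2 gave 2 for mut against WT at 6 h (1) and 2 for mut 24 against 6 h (1), with 22.7% and 4.76% of all genes. With the compared groups alone, the counts were 2 for mut 6 h, 6 for mut 72 h, 1 for mut against WT in solvent (0), 2 for that at 6 h and 4 for mut 24 against 6 h. In the same order, 2.94%, 19.2%, 10.1%, 15.3% and 3.69% of all genes were called. Clone sums, with fewer samples, gave 0 for mut 6 h, mut against WT at 6 h, both interactions, WT 72 against 24 h (1) and mut 24 against 6 h. They called 1.35%, 14.2%, 2.1% (interaction at 24 h), 4.37% (at 72 h), 2.68% and 0.404% of all genes there. A minimum log2 fold change of 1 left 3 for WT at 24 h and at 72 h, 1 for mut at 24 h and at 72 h, 2 for WT 24 against 6 h and 0 elsewhere. The shares of all genes in these 5 comparisons were 9.72%, 10.1%, 3.22%, 5.35% and 2.72%.

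Leaving out 1 library gave 0 to 1 for mut against WT in solvent and at 6 h, for the interaction at 24 h, for WT 72 against 24 h and for mut 24 against 6 h. Without the series 27-2, mut against WT gave 2 in solvent and 2 at 6 h, and without the series 1-2 the interaction at 24 h gave 0. The cause of these shifts was not tested. ACTA2, at 587 to 1144 counts per library, had the fewest counts beside MYL9.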
